A study of Mus musculus with 12 samples.

Results

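The acute phase response genes examined here are 32 liver genes whose protein products, or whose regulators, belong to the systemic reaction to infection and injury. They were chosen by name: Saa1, Saa2, Saa3, Saa4, Crp, Apcs, Orm1, Orm2, Orm3, Hp, Hpx, Ambp, Lcn2, Fga, Fgb, Fgg, Fgl1, Itih3, Itih4, Serpina3n, Serpina3m, Serpina10, Cp, Steap4, C3, C4b, Cfb, Mt1, Mt2, Agt, Stat3 and Il6ra. All 32 had a probe, 44 probes in all, and the brightest probe of each gene was used. Each of the 32 was well above background on 12 of 12 arrays and was among the 26397 genes and transcripts tested.

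Liver RNA came from 12 male mice of 7 weeks, 3 in each of 4 groups, with 1 one-colour (Cy3) Agilent array per mouse. Akp3-/- mice, which lack an intestinal alkaline phosphatase (IAP) of the gut brush border, and wild-type (WT) mice were dosed by mouth once daily for 14 days. The IIAEK groups received 600 mg/kg per day of the pentapeptide IIAEK, which the labels describe as cholesterol-lowering, dissolved in the vehicle. The vehicle groups received only that vehicle, carboxymethylcellulose sodium salt in solution at 5 g/L, and every mouse was fasted for 8 h before its liver was taken. The strain and the way the knockout was made are not given in the sources used here. Replicates are separate mice, since each sample is one liver.

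In an acute phase response, interleukin-1, tumour necrosis factor and interleukin-6 reach the hepatocyte from activated macrophages. Interleukin-6 acts through its receptor and gp130 to activate STAT3, while interleukin-1 acts through NF-kappaB, and both raise the transcription factors C/EBP-beta and C/EBP-delta. Serum amyloid A, orosomucoid, haptoglobin, fibrinogen, hemopexin, ceruloplasmin and complement factors then rise in plasma, and in the mouse serum amyloid A and not C-reactive protein is the major inducible protein. Albumin, transthyretin and many cytochrome P450 genes are known to fall at the same time.

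The sequences before the transcription start are given for 5 inducible members as examples, all of which hold the letters marked below. Mt1, Mt2 and Orm3, whose levels differed more between livers than those of Saa1, Saa2 and Orm2, are not shown. They are from RefSeq on GRCm38.p6, 250 bases ending at the base before the start, 5′ to 3′ on the gene's strand, and capitals mark the C/EBP-type letters TTGCNNAA read on either strand. Lcn2 lies at chr2:32387740-32387989, - strand, Orm2 at chr4:63362199-63362448, + strand, Saa1 at chr7:46742981-46743230, - strand, Saa2 at chr7:46751583-46751832, + strand and Saa3 at chr7:46715677-46715926, - strand.
Lcn2: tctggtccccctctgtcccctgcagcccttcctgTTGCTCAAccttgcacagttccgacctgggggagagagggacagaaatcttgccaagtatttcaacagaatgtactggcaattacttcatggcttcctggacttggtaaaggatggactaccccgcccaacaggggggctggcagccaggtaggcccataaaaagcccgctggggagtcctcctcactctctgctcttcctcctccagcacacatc
Orm2: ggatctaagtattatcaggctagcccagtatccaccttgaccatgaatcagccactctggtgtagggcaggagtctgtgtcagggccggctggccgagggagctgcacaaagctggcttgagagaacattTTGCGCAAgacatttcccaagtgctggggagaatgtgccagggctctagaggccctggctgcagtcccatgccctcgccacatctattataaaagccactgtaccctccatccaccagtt
Saa1: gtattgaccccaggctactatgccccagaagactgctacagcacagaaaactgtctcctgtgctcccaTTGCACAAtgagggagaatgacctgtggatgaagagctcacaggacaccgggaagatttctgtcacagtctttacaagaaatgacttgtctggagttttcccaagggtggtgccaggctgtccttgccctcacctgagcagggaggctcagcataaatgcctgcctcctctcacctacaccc
Saa2: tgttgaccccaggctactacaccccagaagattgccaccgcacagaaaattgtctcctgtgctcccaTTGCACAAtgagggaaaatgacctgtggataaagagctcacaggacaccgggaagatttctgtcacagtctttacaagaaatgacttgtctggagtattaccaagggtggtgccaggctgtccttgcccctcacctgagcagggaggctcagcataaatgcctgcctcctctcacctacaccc
Saa3: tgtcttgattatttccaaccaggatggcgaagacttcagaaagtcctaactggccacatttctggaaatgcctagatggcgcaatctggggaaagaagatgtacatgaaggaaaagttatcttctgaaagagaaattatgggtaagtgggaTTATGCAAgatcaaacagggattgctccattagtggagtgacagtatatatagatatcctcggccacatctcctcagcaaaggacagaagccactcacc
The first capital lies 216 bases before the start in Lcn2, 120 in Orm2, 182 in Saa1, 183 in Saa2 and 99 in Saa3. Saa1 and Saa2 were identical at 94.8% of aligned positions of this window, Orm2 and Orm3 at 85.5%, Saa1 and Saa3 at 48.9%, and Mt1 and Mt2 at 45.7%.

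A window was available for 25 of the 32 members (not for Orm1, Hp, Fgl1, Serpina3m, C4b, Cfb and Serpina10) and for 27025 genes in all. TTGCNNAA occurred in 14 of the 25 member windows (56.0%), against 10.8% of all windows. The 14 were those of C3, Cp, Fga, Fgb, Hpx, Lcn2, Mt2, Orm2, Orm3, Saa1, Saa2, Saa3, Saa4 and Steap4. The STAT-type letters TTCNNNGAA occurred in 6 (24.0%, against 8.1%), namely Agt, Apcs, Fga, Fgb, Itih4 and Steap4. CTGGGAA, a core of fibrinogen interleukin-6 elements, occurred in 4 (16.0%, against 10.4%), an NF-kappaB consensus in 1 (4.0%, against 8.2%), and the metal response letters TGCACNC or TGCGCNC in 4 (16.0%, against 23.8%), which include Mt1 and Mt2. Both strands were read, no 2 matches overlapped in a member, and a match is a run of letters and not a shown binding site.

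The 75th percentile of the processed signal lay between 314.6 and 529.4 over the 12 arrays, and precision is limited by there being 3 arrays per group. Both Akp3 probes were above background on 0 of 12 arrays, so the liver arrays cannot check the knockout. All 8 hepatocyte markers were above background on 12 of 12 arrays. Akp3-/- vehicle 1 and 3 and WT vehicle 2 and 3 stood apart from the rest on the first principal component of all tested genes (55.4% of the variance). These 4 livers lay at 74.2 to 88.2, against -57.4 to -11.3 for the other 8 livers. Markers of the exocrine pancreas had a median 4.01 above their own means (log2) in WT vehicle 1 and 1.0 above in WT IIAEK 1. Elsewhere it was -0.75 to -0.04. Markers of the small intestine had medians of 1.64, 2.67 and 0.75 above their own means in WT vehicle 1, 2 and 3. The other 9 livers lay at -0.99 to -0.10. Of the 11 markers, 6 were higher in every WT vehicle liver than in any other, and the share of all tested genes that were is not given here. Only 4 of the 11 were above background on all arrays. Replicate 1 of every group was on slide 1 and replicates 2 and 3 on slide 2.

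None of the 32 acute phase genes passed the test in any of the 5 comparisons, so no member can be said to have risen or fallen with IIAEK or with the loss of Akp3. The test was limma with a Benjamini-Hochberg adjusted p under 0.05 over all 26397 genes, and it called almost nothing elsewhere either. Members called were 0 of 32 for IIAEK in Akp3-/- mice (0.0% of all genes called), 0 of 32 for IIAEK in WT mice (0.00379%), 0 of 32 for Akp3-/- against WT under IIAEK (0.00758%), 0 of 32 under vehicle (0.00379%) and 0 of 32 for the difference between the IIAEK effects (0.0%). At an unadjusted p under 0.05 the same comparisons held 1 member (Saa4; 6.29% of all genes), 1 (Lcn2; 12.6%), 5 (Orm1, Orm2, Fgl1, Serpina3n and Stat3; 7.84%), 3 (Saa2, Orm1 and Orm2; 6.64%) and 0 (1.56%). As a share of 32, the member counts were above the share of all genes in both genotype comparisons and below it in the others.

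The members varied from liver to liver more than the typical gene. Each level is a log2 processed signal from which its array's 75th percentile (log2) was subtracted, so that 1 unit is a 2-fold difference. The median range over the 12 livers was 1.46 for the members and 1.07 for all tested genes. Of the 32, 10 ranged over more than 2 units, which 14.0% of all tested genes did, and 9 ranged over less than 1 unit, which 44.7% did. The pooled within-group SD had a median of 0.41 for the members and 0.29 for all tested genes.

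**Figure D1:**
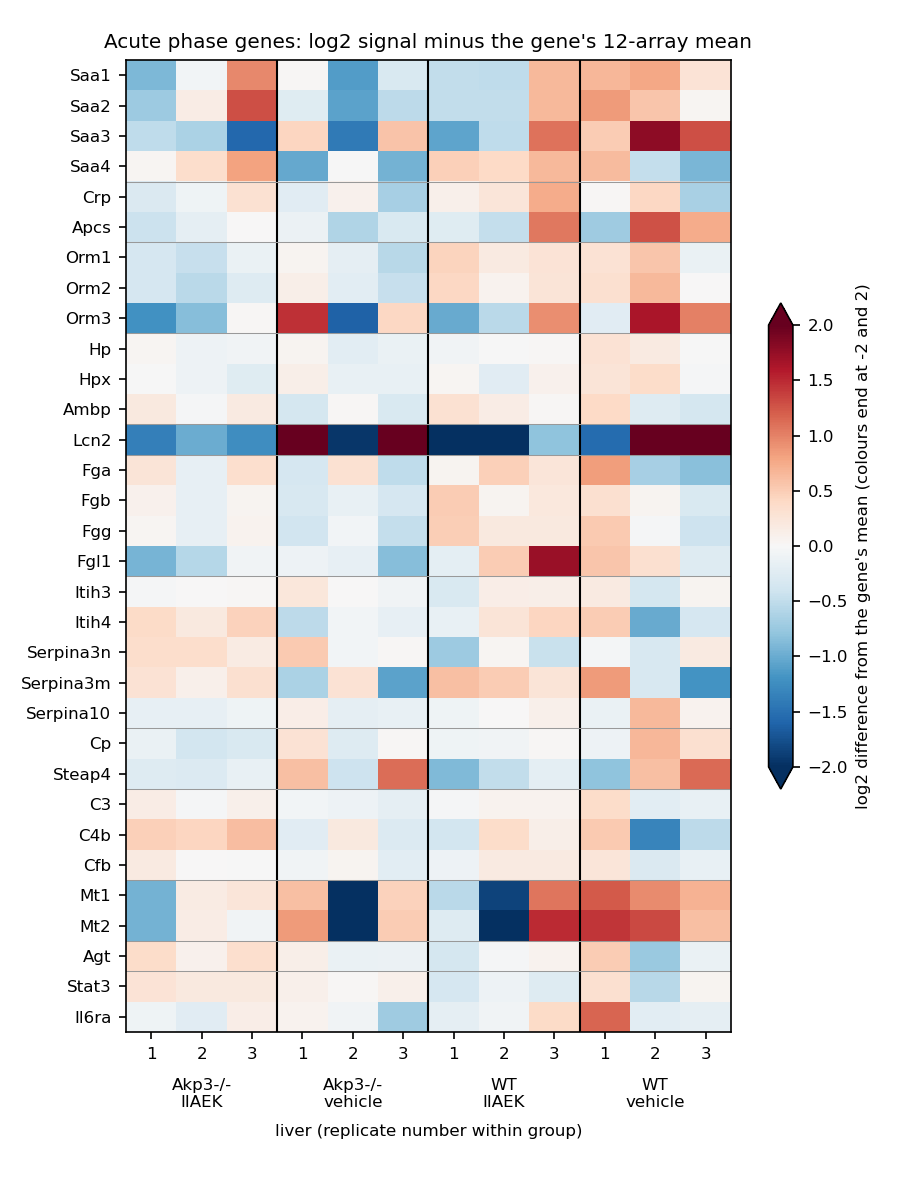
Each row is an acute phase gene, ordered by role, and each column a liver, in the order Akp3-/- IIAEK, Akp3-/- vehicle, WT IIAEK and WT vehicle; colour is the log2 difference from the gene's 12-array mean. Lcn2, Orm3, Saa3, Mt1 and Mt2 vary most, and the rows of Hp, Itih3, C3 and Cfb are pale, with ranges under 1 unit.

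The serum amyloid A genes encode small lipoprotein-bound proteins that carry retinol and bind bacteria, and Saa1 and Saa2 are the major inducible forms of the mouse liver. Saa1 had levels of 5.67, 6.51 and 7.52 in Akp3-/- IIAEK livers, 6.59, 5.45 and 6.26 in Akp3-/- vehicle livers, 6.07, 6.05 and 7.21 in WT IIAEK livers, and 7.23, 7.33 and 6.84 in WT vehicle livers. Saa2 had levels of 5.97, 6.84 and 7.98 in Akp3-/- IIAEK livers, 6.45, 5.62 and 6.17 in Akp3-/- vehicle livers, 6.20, 6.20 and 7.33 in WT IIAEK livers, and 7.54, 7.24 and 6.73 in WT vehicle livers. Akp3-/- IIAEK 3 was the highest liver and Akp3-/- vehicle 2 the lowest for both genes, and under vehicle all 3 Akp3-/- livers were below all 3 WT livers. The probes of these neighbours may share signal, since their transcripts are near-identical, so they are not independent measurements.

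Under vehicle the Akp3-/- mean of Saa1 was 6.10 ± 0.59 and the WT mean 7.13 ± 0.26 (SD, n = 3 each), a log2 difference of -1.03 ± 0.47 (SE) with adjusted p = 0.737. For Saa2 the difference was -1.09 ± 0.48 with adjusted p = 0.737. Slide 1 alone, with 1 array per group, gave -0.64 for Saa1 and -1.09 for Saa2, and slide 2 alone -1.23 and -1.09. As the groups did not overlap, the sign within a slide could not differ. Most small intestine markers differed in the same direction between these groups, with a median Akp3-/- minus WT difference of -2.01 over the 8 tested. Among them were Sis (sucrase-isomaltase) at -3.65 ± 1.01 and Lct (lactase) at -3.84 ± 1.06 (adjusted p = 0.737 for both). Apoa4 at 0.54 and Mttp at 0.26 went the other way, and Fabp2 differed by -0.15. Lct was above background on only 6 arrays and Muc2 on 5. Since a gene was tested if above background throughout 1 group, the filter can admit a gene through the group where it is high. The part of these markers in the Saa1 and Saa2 differences was not tested. IIAEK minus vehicle was 0.46 ± 0.47 in Akp3-/- and -0.69 ± 0.47 in WT mice for Saa1, and 0.85 ± 0.48 and -0.59 ± 0.48 for Saa2. The difference between these IIAEK effects, 1.44 ± 0.68 for Saa2, had the smallest p among the members (0.0599 unadjusted, adjusted p = 1), and it was 0.91 without Akp3-/- IIAEK 3. In Akp3-/- mice the IIAEK difference of Saa2 had opposite signs by slide, -0.49 on slide 1 and 1.51 on slide 2, and it was 0.32 without Akp3-/- IIAEK 3 and 1.33 without Akp3-/- IIAEK 1. In WT mice the IIAEK differences of Saa1 and Saa2 were -1.08 and -0.97 without WT IIAEK 3.

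Saa3 encodes an amyloid A form made largely by macrophages and other non-hepatocyte cells, and Saa4 a form that is made constitutively. Saa3 had levels of 4.02, 3.90 and 2.96 in Akp3-/- IIAEK livers, 4.96, 3.12 and 5.09 in Akp3-/- vehicle livers, 3.47, 4.02 and 5.62 in WT IIAEK livers, and 5.04, 6.31 and 5.82 in WT vehicle livers. It was highest in WT vehicle 2 and lowest in Akp3-/- IIAEK 3, and the groups overlapped in all 4 comparisons. Saa4 had levels of 4.39, 4.71 and 5.17 in Akp3-/- IIAEK livers, 3.33, 4.35 and 3.42 in Akp3-/- vehicle livers, 4.84, 4.76 and 5.00 in WT IIAEK livers, and 4.99, 3.88 and 3.45 in WT vehicle livers. All 3 Akp3-/- IIAEK livers were above all 3 Akp3-/- vehicle livers for Saa4, and in WT the groups overlapped through WT vehicle 1.

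The IIAEK difference of Saa4 was 1.06 ± 0.39 in Akp3-/- mice (adjusted p = 0.663) and 0.76 ± 0.39 in WT mice (adjusted p = 0.407). Without the 4 livers that stood apart it was 0.41 in Akp3-/- and -0.12 in WT mice, with only Akp3-/- vehicle 2 and WT vehicle 1 left under vehicle. For Saa3 the differences were -0.76 ± 0.64 in Akp3-/- and -1.35 ± 0.64 in WT mice, and 0.51 and -0.67 without those 4. Leaving out 1 Akp3-/- array at a time, the Akp3-/- value of Saa3 was -0.43 without IIAEK 3, and -0.48, -1.40 and -0.41 without vehicle 1, 2 and 3. The pentraxins Crp, which binds phosphocholine on microbes, and Apcs, the serum amyloid P component, ranged over 1.41 and 1.99 units. Their IIAEK differences lay between -0.33 and 0.43, and Apcs was highest in WT vehicle 2 at 3.44 and WT IIAEK 3 at 3.21.

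**Figure D2:**
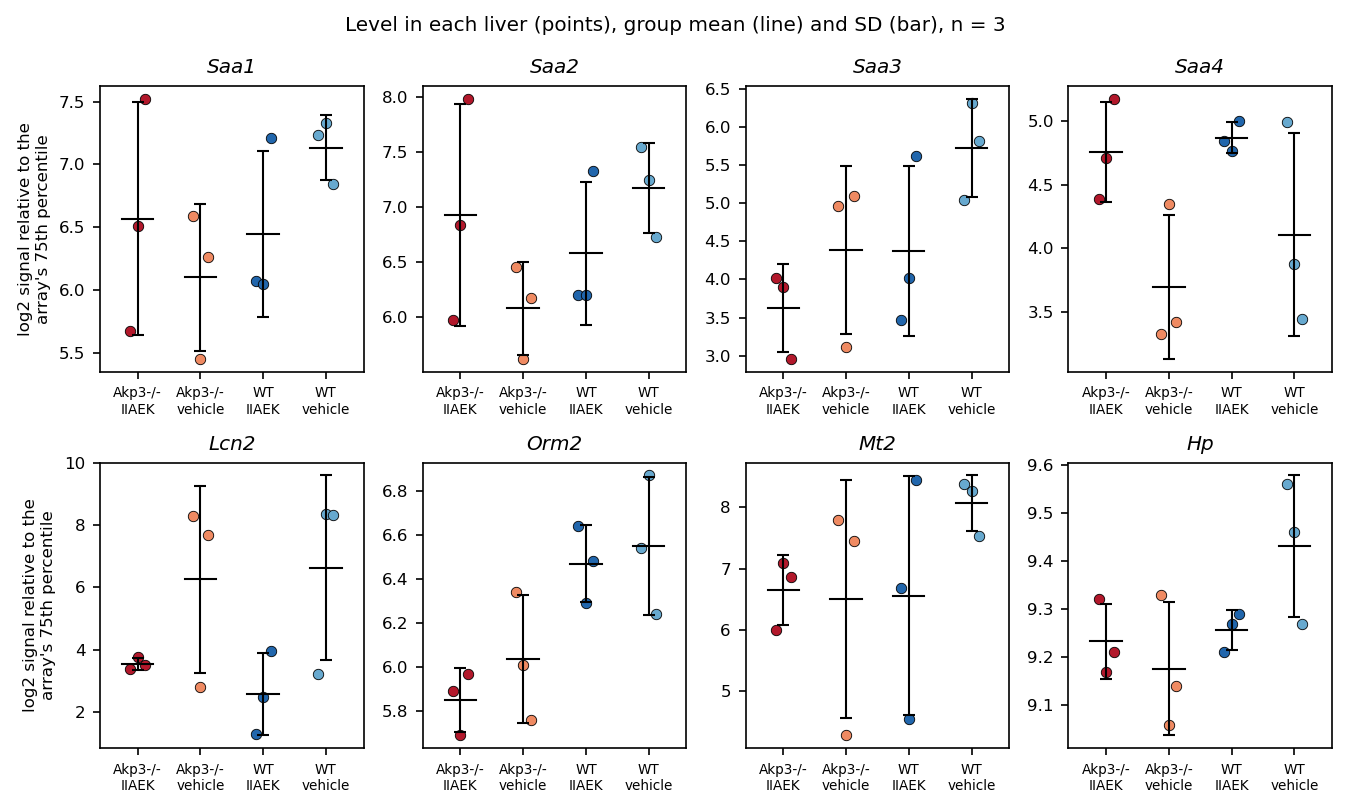
Points are livers, horizontal lines group means and bars the SD (n = 3) for 8 members, with the log2 level on the vertical axis and a scale of its own in each panel. Lcn2 splits into 4 livers at 7.68 to 8.34 and 8 at 1.30 to 3.95, and Hp stays within 0.50 units over all 12 livers.

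The orosomucoid genes encode alpha-1-acid glycoproteins, plasma carriers of basic drugs and lipids. Orm2 had levels of 5.89, 5.69 and 5.97 in Akp3-/- IIAEK livers, 6.34, 6.01 and 5.76 in Akp3-/- vehicle livers, 6.64, 6.29 and 6.48 in WT IIAEK livers, and 6.54, 6.87 and 6.24 in WT vehicle livers. Under IIAEK all 3 Akp3-/- livers were below all 3 WT livers, while under vehicle Akp3-/- 1 at 6.34 lay above WT 3 at 6.24. Orm1 gave a like picture, with 7.09 to 7.41 in Akp3-/- IIAEK livers, 7.0 to 7.60 in Akp3-/- vehicle livers, 7.73 to 7.99 in WT IIAEK livers and 7.42 to 8.10 in WT vehicle livers.

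Akp3-/- minus WT was -0.62 ± 0.20 under IIAEK (adjusted p = 0.629) and -0.52 ± 0.20 under vehicle (adjusted p = 0.737) for Orm2. For Orm1 it was -0.61 ± 0.21 under IIAEK (adjusted p = 0.629) and -0.46 ± 0.21 under vehicle (adjusted p = 0.737). These genotype comparisons share no livers. On slide 1, with 1 array per group, and on slide 2 the Orm2 difference was -0.75 and -0.56 under IIAEK. There the groups did not overlap, so the sign within a slide could not differ. Under vehicle it was -0.20 and -0.68. Neither gene passed the test, and probes of the 3 Orm genes may share signal. Orm3, the third family member, ranged from -0.28 in Akp3-/- vehicle 2 to 2.97 in WT vehicle 2, with 1.75 to 2.97 in the 4 livers that stood apart and 2.27 in WT IIAEK 3.

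Haptoglobin, which captures free haemoglobin, was the steadiest of the genes fixed for full description. Hp had levels of 9.32, 9.17 and 9.21 in Akp3-/- IIAEK livers, 9.33, 9.06 and 9.14 in Akp3-/- vehicle livers, 9.21, 9.27 and 9.29 in WT IIAEK livers, and 9.56, 9.46 and 9.27 in WT vehicle livers. The livers spanned 0.50 units in all, and the groups overlapped in every comparison. IIAEK minus vehicle was 0.06 ± 0.13 in Akp3-/- and -0.18 ± 0.13 in WT mice. Hemopexin (Hpx), which binds haem, spanned 0.60 units, and Ambp, the precursor of alpha-1-microglobulin and bikunin, 0.76 units.

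Lcn2 varied most among the members. It encodes lipocalin 2, a siderophore-binding protein that withholds iron from bacteria and is made by stimulated hepatocytes and by neutrophils. Lcn2 had levels of 3.38, 3.76 and 3.51 in Akp3-/- IIAEK livers, 8.29, 2.81 and 7.68 in Akp3-/- vehicle livers, 1.30, 2.48 and 3.95 in WT IIAEK livers, and 3.21, 8.34 and 8.33 in WT vehicle livers. In each vehicle group 2 livers were at 7.68 to 8.34, and the remaining vehicle liver of each genotype lay among the 6 IIAEK livers, which reached 3.95 at most. The highest liver was 132-fold above the lowest, and its range of 7.04 units ranked 62nd of 26397. A second Lcn2 probe gave 6.06 to 6.79 in the same 4 livers and -0.81 to 1.95 in the other 8.

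IIAEK minus vehicle was -2.71 ± 1.56 in Akp3-/- mice (adjusted p = 0.663) and -4.05 ± 1.56 in WT mice (adjusted p = 0.393) for Lcn2, so neither difference passed despite its size. Without the 4 livers that stood apart the values were 0.74 and -0.63, with only Akp3-/- vehicle 2 and WT vehicle 1 left under vehicle. Those 4 are the livers with high Lcn2, so smaller differences were bound to follow. In Akp3-/- mice the Lcn2 difference was -1.69 without vehicle 1 (adjusted p = 0.96) and -4.43 without vehicle 2 (adjusted p = 0.178). Leaving out only WT vehicle 1 gave -5.76 in WT mice with adjusted p = 0.0325. Steap4, a metalloreductase that supplies ferrous iron and copper to cells, separated the same 4 livers, with 1.21 and 1.72 in Akp3-/- vehicle 1 and 3 and 1.20 and 1.73 in WT vehicle 2 and 3, against 0.46 at most in the other 8. Ceruloplasmin (Cp), the copper-carrying ferroxidase of plasma, was at 8.03 to 8.66 in those 4 livers and at 7.63 to 8.03 elsewhere.

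Other transcripts moved with Lcn2 in the same livers, and their part in its values was not tested. S100a9, a calcium-binding protein abundant in neutrophils, had levels of 0.55, 0.96 and 1.70 in Akp3-/- IIAEK livers, 2.87, -0.11 and 3.41 in Akp3-/- vehicle livers, 0.72, 0.23 and 1.70 in WT IIAEK livers, and -0.32, 3.41 and 3.54 in WT vehicle livers. Marco, a scavenger receptor of Kupffer cells, had levels of 1.68, 2.77 and 2.42 in Akp3-/- IIAEK livers, 5.36, 2.94 and 5.95 in Akp3-/- vehicle livers, 2.03, 2.17 and 4.04 in WT IIAEK livers, and 3.92, 6.08 and 6.40 in WT vehicle livers. Cebpd, which encodes C/EBP-delta, had levels of 2.31, 2.20 and 2.29 in Akp3-/- IIAEK livers, 4.50, 2.39 and 3.43 in Akp3-/- vehicle livers, 2.27, 2.80 and 2.61 in WT IIAEK livers, and 3.46, 4.42 and 4.26 in WT vehicle livers. All 3 were highest in the livers with high Lcn2, except that Cebpd in WT vehicle 1 (3.46) was slightly above Akp3-/- vehicle 3 (3.43).

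S100a9 and Marco were picked from their lists after their values were seen, and not every marker of those lists followed them. Of the 12 neutrophil markers, 7 were higher in each of these 4 livers than in any of the other 8. Csf3r, the G-CSF receptor, was at 6.36 to 6.71 in the 4 and 6.57 to 7.14 in the other 8, and Elane, neutrophil elastase, at 0.02 to 0.65 and 0.38 to 1.11. Of the 12 macrophage markers 7 were higher in each of the 4 than in any of the other 8. The share of all tested genes separated in this way is not given here, so neither count can be read as particular to these cell types. The same 4 livers stood apart on the first principal component of all tested genes.

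For the whole marker lists, 8 of 12 neutrophil markers were above background on all arrays and each of the 12 on at least 1. Their median, each gene relative to its own mean, was 1.03 and 1.55 in Akp3-/- vehicle 1 and 3 and 1.23 and 1.60 in WT vehicle 2 and 3, against -1.25 to -0.19 in the other 8. Their summed signal, in units of the array's 75th percentile, ran from 100 to 115.0 in Akp3-/- IIAEK, 99.5 to 106.0 in Akp3-/- vehicle, 113.0 to 138.0 in WT IIAEK and 108.0 to 145.0 in WT vehicle livers. Csf3r made up 82.4% to 97.1% of that sum, and without it the sum was 4.11 to 6.59 in Akp3-/- IIAEK, 3.46 to 17.5 in Akp3-/- vehicle, 3.89 to 6.12 in WT IIAEK and 4.22 to 18.7 in WT vehicle livers. The 12 macrophage markers, all above background on 12 of 12 arrays, summed to 140.0 to 250, 188.0 to 452.0, 146.0 to 304.0 and 183.0 to 526.0 in the same order of groups. In whole liver, fewer cells of a type and less RNA per cell cannot be told apart. Adipocytes are another known source of Lcn2 and Steap4, and 3 of 10 adipocyte markers were above background on no array, Adipoq among them. The adipocyte list summed to 33.0 to 42.4 in Akp3-/- IIAEK, 50.9 to 82.7 in Akp3-/- vehicle, 29.8 to 39.5 in WT IIAEK and 29.0 to 57.3 in WT vehicle livers. Pnpla2, Cidec and Fabp4 had the highest levels of that list. Its median, each gene relative to its own mean, was -0.32 to 0.20 in the 4 livers with high Lcn2 and -0.27 to 0.22 in the other 8. Only 4 of the 10 were above background on all arrays. Fabp4 was at 3.83 to 4.45 in the 4 livers and 2.46 to 3.09 in the other 8. Lep, at -1.15 to -0.85 against -0.72 to -0.05, and Lipe, at -5.84 to -4.69 against -4.48 to -3.64, went the other way. Stellate cell and fibroblast markers had medians of 0.59 and 0.79 in Akp3-/- vehicle 1 and 3 and 0.58 and 0.67 in WT vehicle 2 and 3, against 0.33 at most in the other 8. Red blood cell markers were at 0.85 and 0.40 in those Akp3-/- livers and 1.54 and 0.82 in those WT livers, with WT IIAEK 3 at 1.73 above all 4. Hepatocyte markers were at -0.26 and -0.44 in the Akp3-/- livers and -0.07 and -0.40 in the WT livers, against -0.08 to 0.43 in the other 8. The part of these cell types in the Lcn2 and Steap4 values was not tested.

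**Figure D3:**
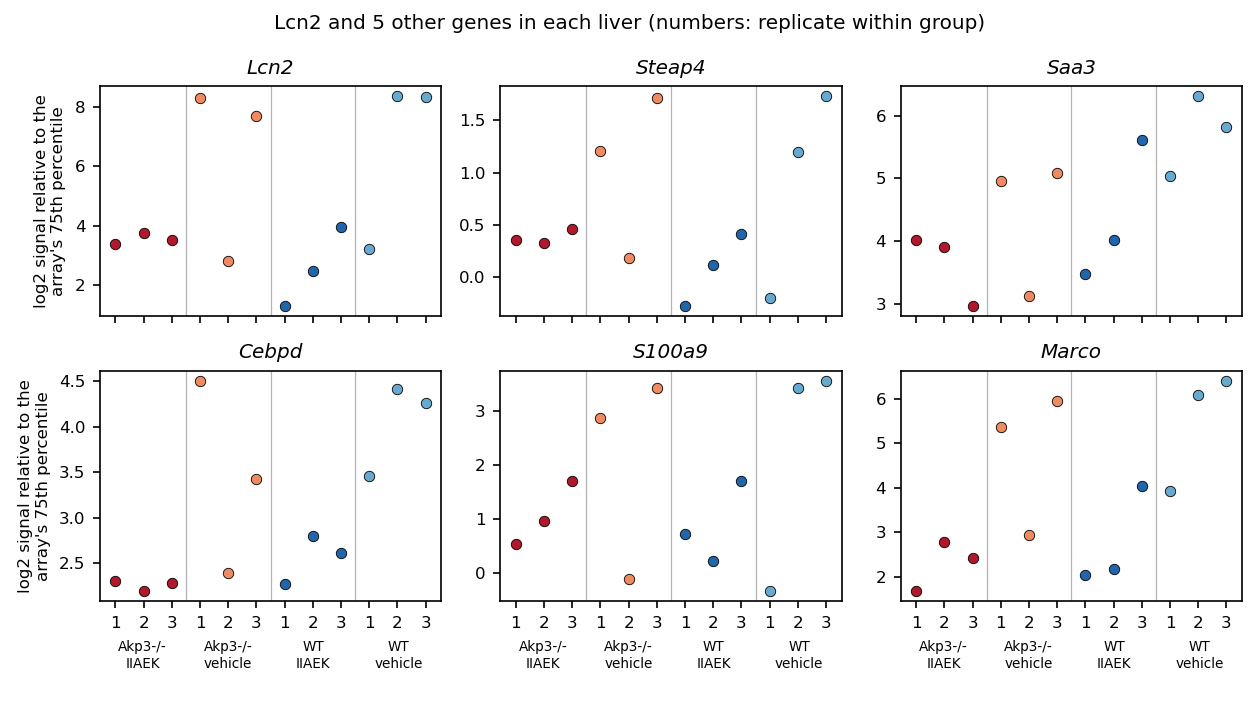
The log2 level of Lcn2, Steap4, Saa3, Cebpd, S100a9 and Marco is shown for each of the 12 livers, in the order Akp3-/- IIAEK, Akp3-/- vehicle, WT IIAEK and WT vehicle. Akp3-/- vehicle 1 and 3 and WT vehicle 2 and 3 are the 4 highest livers for Lcn2, Steap4, S100a9 and Marco, but not for Saa3, where WT IIAEK 3 at 5.62 exceeds both Akp3-/- livers.

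The fibrinogen genes encode the 3 chains of the clotting protein, and Fgl1 a related hepatocyte-secreted protein. Fgb had levels of 9.58, 9.32 and 9.54 in Akp3-/- IIAEK livers, 9.17, 9.35 and 9.15 in Akp3-/- vehicle livers, 10.00, 9.55 and 9.70 in WT IIAEK livers, and 9.81, 9.54 and 9.19 in WT vehicle livers. The groups overlapped in every comparison, and the range was 0.85 units. Fgl1 had levels of 5.14, 5.50 and 6.0 in Akp3-/- IIAEK livers, 5.97, 5.91 and 5.22 in Akp3-/- vehicle livers, 5.88, 6.57 and 7.80 in WT IIAEK livers, and 6.63, 6.39 and 5.81 in WT vehicle livers. WT IIAEK 3 at 7.80 stood 1 unit or more above every other liver, and the Akp3-/- IIAEK livers overlapped the WT IIAEK livers only through Akp3-/- 3 at 6.0 and WT 1 at 5.88. Akp3-/- minus WT under IIAEK was -1.20 ± 0.44 for Fgl1 (adjusted p = 0.629), the lowest among the members. It was -0.68 without WT IIAEK 3. The same difference was -0.31, -0.27 and -0.11 for Fgg, Fgb and Fga. IIAEK minus vehicle lay between 0.24 and 0.48 for these 4 genes in WT mice and between -0.16 and 0.32 in Akp3-/- mice.

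Among the protease inhibitors, Serpina3n, an antichymotrypsin-like serpin, was at 3.38 to 3.58 in Akp3-/- IIAEK livers, against 2.49 to 3.26 in WT IIAEK livers. The Akp3-/- minus WT difference under IIAEK was 0.67 ± 0.23 (adjusted p = 0.629), and under vehicle 0.22 ± 0.23 (adjusted p = 0.819). Serpina3m ran the other way from Lcn2, at 8.21 and 8.65 in Akp3-/- vehicle 3 and 1 and 8.08 and 8.96 in WT vehicle 3 and 2, against 9.37 to 10.12 in the other 8. Itih4, a heavy chain of the inter-alpha-inhibitor family, was lowest in WT vehicle 2 at 7.05, whereas Itih3 stayed within 0.57 units. Serpina10, the protein Z-dependent inhibitor of factor X, ranged over 0.82 units. Members of the Serpina3 family may share probe signal.

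Complement C3, the central component of the cascade, had levels of 9.85, 9.68 and 9.81 in Akp3-/- IIAEK livers, 9.65, 9.61 and 9.53 in Akp3-/- vehicle livers, 9.68, 9.77 and 9.77 in WT IIAEK livers, and 10.07, 9.49 and 9.56 in WT vehicle livers. All 3 Akp3-/- IIAEK livers were above all 3 Akp3-/- vehicle livers, by a mean of 0.18 ± 0.16, while in WT the groups overlapped and the difference was 0.04 ± 0.16. Quantile normalization turned the Akp3-/- value to -0.05. C4b, which feeds the classical and lectin pathways, was lowest in WT vehicle 2 at 5.91 and highest in Akp3-/- IIAEK 3 at 7.84. Cfb, the protease of the alternative pathway, stayed within 0.52 units. Agt, the precursor of angiotensin, was at 6.89 to 7.17 in Akp3-/- IIAEK livers and at 6.46 to 6.87 in WT IIAEK livers, a difference of 0.36 ± 0.27 (adjusted p = 0.692).

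The metallothioneins, which bind zinc and copper and respond to metals, glucocorticoids and interleukin-6, did not separate the same livers as Lcn2. Mt1 had levels of 6.34, 7.45 and 7.52 in Akp3-/- IIAEK livers, 7.88, 5.20 and 7.75 in Akp3-/- vehicle livers, 6.75, 5.44 and 8.36 in WT IIAEK livers, and 8.51, 8.23 and 7.98 in WT vehicle livers. Mt2 had levels of 6.0, 7.09 and 6.87 in Akp3-/- IIAEK livers, 7.79, 4.28 and 7.45 in Akp3-/- vehicle livers, 6.68, 4.55 and 8.44 in WT IIAEK livers, and 8.38, 8.27 and 7.54 in WT vehicle livers. Both genes were lowest in Akp3-/- vehicle 2 and WT IIAEK 2, and the 3 WT vehicle livers were at 7.54 to 8.51 over both genes. Akp3-/- vehicle 2 was also the lowest liver for Saa1, Saa2 and Orm3. For Mt1, all 3 Akp3-/- vehicle livers were below all 3 WT vehicle livers, while for Mt2 Akp3-/- vehicle 1 at 7.79 lay above WT vehicle 3 at 7.54.

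Akp3-/- minus WT under vehicle was -1.30 ± 0.79 for Mt1 (adjusted p = 0.737) and -1.56 ± 1.01 for Mt2 (adjusted p = 0.739), and under IIAEK 0.25 ± 0.79 and 0.10 ± 1.01. Without Akp3-/- vehicle 2 the vehicle differences were -0.42 for Mt1 and -0.45 for Mt2, so that 1 liver carried most of both. The median of the small intestine markers was also highest in the WT vehicle livers, and their part here was not tested. IIAEK minus vehicle was 0.15 ± 1.01 in Akp3-/- and -1.51 ± 1.01 in WT mice for Mt2, and the difference between these effects, 1.65 ± 1.42, was the highest among the members (adjusted p = 1). That difference was -0.10 on slide 1 and 2.53 on slide 2. It was 0.54 without Akp3-/- vehicle 2, 0.65 without WT IIAEK 2 and 2.59 without WT IIAEK 3. The WT value of -1.51 was itself -0.50 without WT IIAEK 2 and -2.45 without WT IIAEK 3. A second Mt1 probe, for a predicted transcript, gave 0.16 for the vehicle genotype difference where the main probe gave -1.30.

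Stat3, the transcription factor of the interleukin-6 pathway, had levels of 3.43, 3.34 and 3.34 in Akp3-/- IIAEK livers, 3.25, 3.18 and 3.25 in Akp3-/- vehicle livers, 2.81, 3.04 and 2.89 in WT IIAEK livers, and 3.47, 2.59 and 3.20 in WT vehicle livers. The Akp3-/- IIAEK livers were all above both the Akp3-/- vehicle livers and the WT IIAEK livers, within a range of 0.87 units over all 12. Akp3-/- minus WT was 0.45 ± 0.20 under IIAEK (adjusted p = 0.629) and 0.14 ± 0.20 under vehicle. Il6ra, the ligand-binding receptor subunit, was highest in WT vehicle 1 at 4.89 and lay between 3.01 and 4.11 elsewhere. A second Stat3 probe gave 0.41 for the genotype difference under IIAEK.

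The IIAEK comparisons can be summarised by the 32 members together. In Akp3-/- mice the median IIAEK difference was 0.15, against 0.04 for all tested genes, and 5 members (Saa4, Itih4, C3, C4b and Stat3) were higher in every IIAEK liver than in every vehicle liver, where 8.82% of all genes were. No member was lower without overlap, against 6.24% of all genes. In WT mice the median was -0.13, against 0.05 for all genes, and 0 members were separated in the higher direction (7.24% of all genes) or the lower direction (5.71%). Within slides the median was -0.17 on slide 1 and 0.19 on slide 2 in Akp3-/- mice, and -0.44 and 0.04 in WT mice. These are descriptions of a list whose members were known, and no test was made on them.

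**Figure D4:**
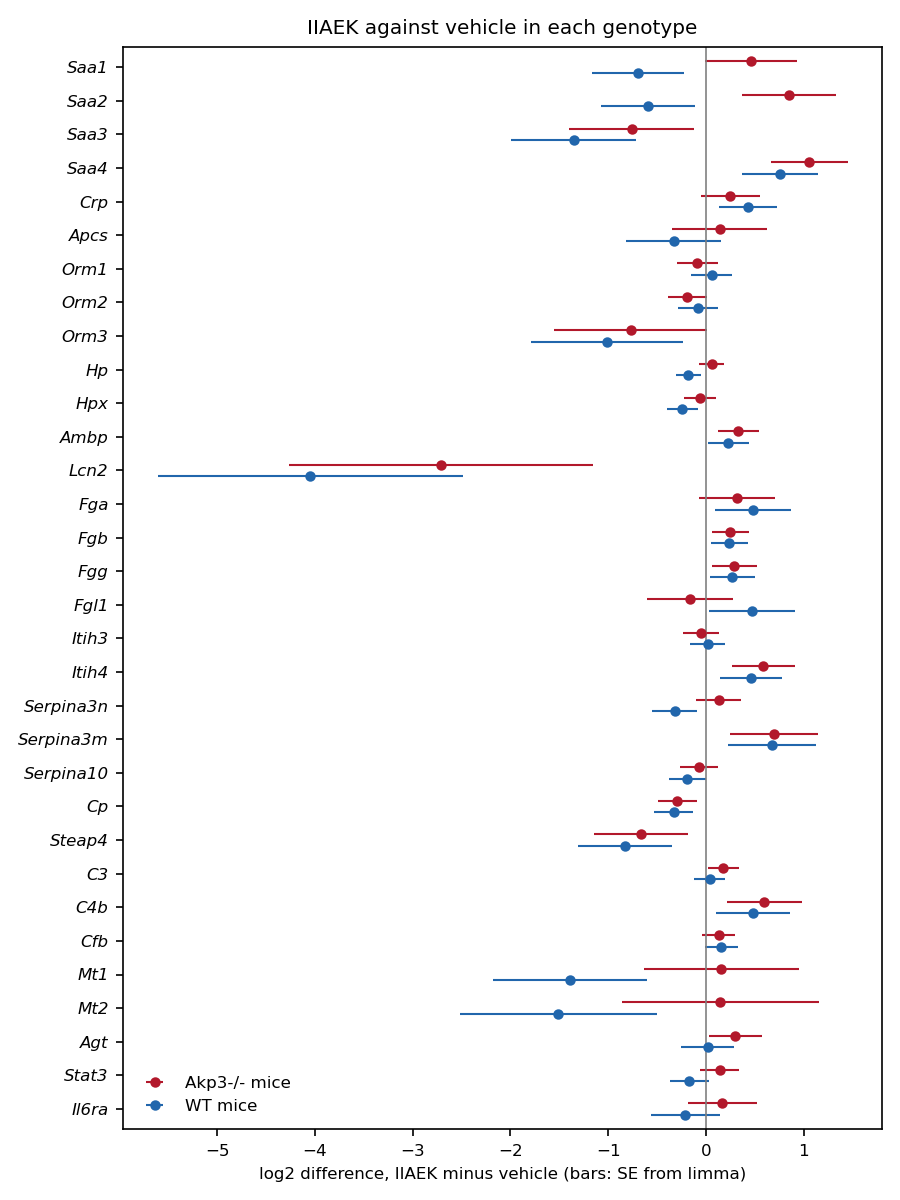
Points give the log2 difference, IIAEK minus vehicle, for each member in Akp3-/- mice (red) and in WT mice (blue), and bars the SE from limma. Lcn2 lies farthest from 0 in both genotypes, at -2.71 and -4.05, and no difference passed the test.

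The difference between the IIAEK effects, Akp3-/- minus WT, had a median of 0.16 over the members and 0.01 over all tested genes. It was above 0 for 25 of the 32 members (78.1%) and for 51.3% of all tested genes. The values ran from -0.63 for Fgl1 to 1.65 for Mt2, and all 4 serum amyloid A genes lay between 0.30 and 1.44. Leaving out WT vehicle 1 moved the median to -0.04. Without the 4 livers that stood apart it was 0.45, with only Akp3-/- vehicle 2 and WT vehicle 1 left under vehicle.

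For the loss of Akp3, the median Akp3-/- minus WT difference was -0.06 under IIAEK, against -0.02 for all genes, and -0.26 under vehicle, against -0.05. Under IIAEK 4 members were higher in every Akp3-/- liver (Serpina3n, C4b, Stat3 and Agt; 13.0% of all genes) and 5 lower (Orm1, Orm2, Fgg, Cp and Serpina10; 14.6%). Under vehicle 0 were higher (3.14%) and 3 lower (Saa1, Saa2 and Mt1; 5.3%). Of the 32 vehicle differences, 24 were below 0 and 8 above 0, while 43.2% of all tested genes were above 0. On slide 1 and slide 2 alone the vehicle median was -0.36 and -0.23. Without WT vehicle 1 and 2, which leaves only WT vehicle 3 in that group, it was -0.05. The vehicle difference of Saa3 was -1.33, and -0.70 without Akp3-/- vehicle 2.

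**Figure D5:**
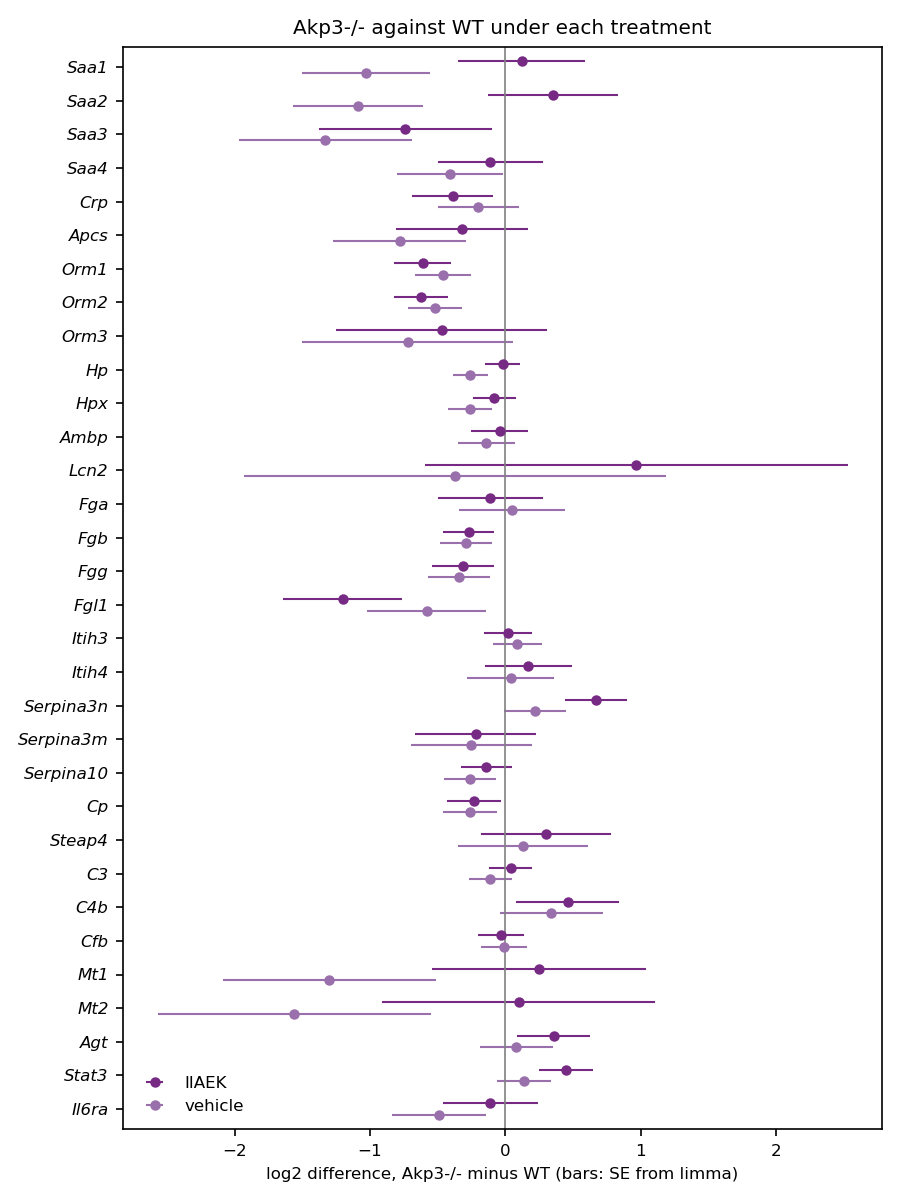
Points give the log2 difference, Akp3-/- minus WT, for each member under IIAEK (dark) and under vehicle (light), and bars the SE from limma. Orm1 and Orm2 lie at -0.62 to -0.46 under both treatments, and Mt2, Saa3, Mt1, Saa2 and Saa1 lie below -1 under vehicle alone.

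The wider pathway was examined with 6 further lists, and 0 of their genes passed the test in any comparison. Of all tested genes, 6.29% had an unadjusted p under 0.05 for IIAEK in Akp3-/- mice and 12.6% in WT mice, and 55.7% and 55.2% of the differences were above 0. Of 21 tested genes of the IL-6 and STAT3 pathway, 2 were higher and 3 lower with IIAEK in Akp3-/- mice at an unadjusted p under 0.05, and 1 and 2 in WT mice, against 6.29% and 12.6% of all genes in either direction. Il6 itself, the cytokine, was above background on 0 of 3 Akp3-/- IIAEK arrays, 3 of 3 Akp3-/- vehicle arrays, 2 of 3 WT IIAEK arrays and 2 of 3 WT vehicle arrays. Its mean level was -6.63 in Akp3-/- IIAEK and -4.87 in Akp3-/- vehicle livers. The level was at least 1.26-fold lower with IIAEK when computed against the lowest signal above background. The test (adjusted p = 0.663) was of the difference of -1.76 ± 0.41, which uses Akp3-/- IIAEK signals below background. Il6, among the 3 lower genes counted above, entered the test only through the Akp3-/- vehicle group, the high side of this comparison. Pias3, an inhibitor of STAT3, differed by 0.78 ± 0.25 in Akp3-/- and 0.58 ± 0.25 in WT mice (adjusted p = 0.663 and 0.393).

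Of 24 genes of the IL-1, TNF and NF-kappaB inputs, 18 had IIAEK differences below 0 in Akp3-/- and 18 in WT mice, with medians of -0.49 and -0.44, and 3 and 9 were lower at an unadjusted p under 0.05 (6.29% and 12.6% of all genes in either direction). Irak3, which restrains Toll-like receptor signalling, differed by -0.93 ± 0.43 in Akp3-/- and -1.48 ± 0.43 in WT mice (adjusted p = 0.663 and 0.393). Tlr2, a receptor for bacterial lipoproteins, differed by -1.16 ± 0.54 and -1.80 ± 0.54 (adjusted p = 0.663 and 0.393). Both genes were highest in the 4 livers that stood apart, with Tlr2 at 1.53 to 2.27 there and at -1.06 to 0.29 in the other 8.

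Of 14 tested liver transcription factors of acute phase genes, 3 were higher and 1 lower in Akp3-/- mice and 3 higher and 2 lower in WT mice at that unadjusted threshold, where 6.29% and 12.6% of all genes lay in either direction. Foxa2, a pioneer factor of hepatocytes, differed by 0.77 ± 0.27 in Akp3-/- and 1.18 ± 0.27 in WT mice, and Cebpd by -1.17 ± 0.44 and -1.48 ± 0.44 (adjusted p = 0.393 for both in WT mice). Of 32 other positive acute phase genes, 2 were higher and 3 lower in Akp3-/- mice and 3 higher and 7 lower in WT mice, beside the same 6.29% and 12.6% of all genes. Gadd45g, a stress sensor, differed by -1.04 ± 0.23 and 1.34 ± 0.23, and Mbl2, the mannose-binding lectin, by 0.99 ± 0.26 and 0.83 ± 0.26. Of 14 tested glucocorticoid targets, 0 were higher and 3 lower in Akp3-/- mice and 1 higher and 2 lower in WT mice, beside those same shares. Tat, tyrosine aminotransferase, differed by -0.80 ± 0.33 and -1.14 ± 0.33, and Slc30a10, a manganese exporter, by 1.51 ± 0.91 and 2.56 ± 0.91.

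The 22 negative acute phase genes, which are known to fall in an acute phase response, had a median IIAEK difference of 0.33 in Akp3-/- and 0.43 in WT mice, against 0.04 and 0.05 for all tested genes. Above 0 lay all but 1 of the 22 in Akp3-/- mice and all 22 in WT mice, where 55.7% and 55.2% of all genes did. At an unadjusted p under 0.05, 1 and 2 of the 22 were higher, shares below the 6.29% and 12.6% of all genes in either direction. Cyp3a11, a drug-metabolising cytochrome, differed by -0.51 ± 0.25 in Akp3-/- and 1.04 ± 0.25 in WT mice, and Cyp2c29 by 0.18 ± 0.45 and 1.01 ± 0.45, with none past the adjusted threshold. The median of the list, each gene relative to its own mean, was -0.31 and -0.45 in Akp3-/- vehicle 1 and 3 and -0.40 and -0.62 in WT vehicle 2 and 3. It was 0.02 to 0.58 in the other 8 livers, so those 4 were the lowest, and WT vehicle 1 was the highest.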

How the data were processed

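Liver RNA of 12 mice was hybridised to one-colour arrays, 3 per group, and groups were taken from the sample titles. The source name of IIAEK samples states weeks, but titles and protocol state days, so 14 days was used. Per the file headers, Agilent Feature Extraction 10.7.3.1 made the processed signal, an intensity per spot that is background-subtracted and not scaled between arrays. The deposited series table holds log2 values that matched the scanner files after the 75th percentile shift and centring on each probe's median (column medians -0.154 to 0.171). Probes were named by their transcript through RefSeq (32983 of 56588), and spots flagged as non-uniform were left out.

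Levels are log2 intensity minus the array's 75th percentile. Genes were tested if, in 1 group or more, every array had the brightest probe well above background. Differences came from a limma 3.58.1 fit (R 4.3.3) of all 12 arrays, 1 mean per group (8 residual degrees of freedom), two-sided, with Benjamini-Hochberg adjustment. The script was tested on simulated data. The members and lists were chosen with earlier results of these data known. Values in every array are given for any member past the threshold (there was none), the 2 members with the largest difference in each group comparison, and Saa1, Saa2, Lcn2, Orm2, Hp, Mt1, Mt2, Stat3, C3 and Fgb, and for each further list called genes or, with none, the 2 genes with the smallest p for IIAEK are named. S100a9 and Marco were chosen after their values were seen. The alternatives were other background correction, normalization, filter, probe summary, variance model, array weights, slide, replicate block, fewer samples and the series table.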

Additional observations from a re-analysis of the deposited data

How the results depend on the processing

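Of 27 alternatives, those on background correction, filter, probe summary, variance model, fewer groups, the slide as a block, the replicate block and the series table left 0 members called in every comparison they could fit, and the difference between the IIAEK effects has no value with only the groups compared. With the replicate block, which changed no call, the medians stayed at 0.15 and -0.13 for IIAEK in Akp3-/- and WT mice. Same-numbered livers showed no clear tendency to deviate together (r -0.547 to 0.646 over 18 pairs, median 0.038). The 36 differently numbered pairs gave r -0.694 to 0.777 (median 0.007). With 3 mice per group this cannot exclude a pairing, and the replicate number follows the slide. Leaving out 1 array at a time gave 0 to 6 members called for IIAEK in WT mice. The 6 (Saa4, Lcn2, Fga, Itih4, C4b and Steap4) came without WT vehicle 1, where 4109 genes (15.0%) were called, and array weights called 1 member for IIAEK in Akp3-/- mice (Saa4, adjusted p = 0.0463) among 982 genes (3.72%). The cause was not tested. Over all genes, calls ranged over 0 to 982 for IIAEK in Akp3-/- mice (reported value 0), 0 to 4109 in WT mice (1) and 0 to 54 for genotype under IIAEK (2). They ranged over 0 to 2 for genotype under vehicle (1) and 0 to 1 for the difference between IIAEK effects (0). Fits that left a group with 1 array are not in these ranges.

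The median member difference for IIAEK in WT mice (-0.13) was 0.03 with array weights, -0.44 on slide 1, 0.04 on slide 2, -0.29 without the 4 vehicle livers that stood apart and -0.15 to 0.05 with 1 array left out. For IIAEK in Akp3-/- mice it was -0.17 on slide 1, and for Akp3-/- against WT under vehicle (-0.26) it was -0.08 with quantile normalization, -0.48 without the 4 livers and -0.05 without WT vehicle 1 and 2. The median difference between the IIAEK effects (0.16) was 0.45 without the 4 livers and -0.04 to 0.25 with 1 array left out.

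Among 160 member differences, 72 exceeded their SE, and 27 of these turned sign in at least 1 alternative. On slide 1, which has 1 array per group and no test, IIAEK in WT mice gave -0.15 for Saa4, -0.78 for Fga, -0.04 for Fgg, -0.75 for Fgl1, -0.65 for Itih4, -0.25 for Serpina3m, 0.02 for Cp, -0.89 for C4b and -0.09 for Ambp. Also on slide 1, IIAEK in Akp3-/- mice gave -0.49 for Saa2, the vehicle genotype difference 0.60 for Apcs, 0.40 for Cp and 0.26 for Serpina10, the genotype difference under IIAEK 0.55 for Saa3, and the difference between IIAEK effects -0.10 for Mt2. Without the 4 livers, IIAEK in WT mice gave -0.12 for Saa4, 0.03 for Orm3, -0.58 for Fga, -0.06 for Fgb, -0.23 for Fgg, -0.32 for Itih4, -0.39 for Serpina3m, 0.06 for Cp, -0.48 for C4b, 0.28 for Steap4 and -0.24 for Ambp. There, IIAEK in Akp3-/- mice gave 0.51 for Saa3, 0.74 for Lcn2, -0.05 for Serpina3m and 0.20 for Steap4, and the vehicle genotype difference 0.11 for Apcs. Without WT vehicle 1 and 2 that genotype difference was 0.24 for Saa4, 0.04 for Fgb and 0.11 for Fgg, and on slide 2 it was 0.22 for Saa4. Quantile normalization gave -0.04 for Fgg and -0.05 for C3 for IIAEK in Akp3-/- mice. With 1 array left out, Fgl1 for IIAEK in WT mice ran from -0.05 (without WT IIAEK 3) to 0.91, and Saa4 for the vehicle genotype difference from -0.73 to 0.03 (without WT vehicle 1).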

Other observations

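Single livers differed in how many acute phase genes lay above the gene's own 12-array mean. Akp3-/- vehicle 2 had 8 of the 32 members above their means and Akp3-/- vehicle 3 had 9, against 28 in WT IIAEK 3 and 25 in WT vehicle 1. WT vehicle 1 held the highest value for 12 members, among them Fga, Fgg, Il6ra, Mt1 and Serpina3m, and WT vehicle 2 for 9, among them Saa3, Orm2, Lcn2 and Cp. WT vehicle 2 also held the lowest value for 7 members, among them C4b, Itih4 and Agt. Exocrine pancreas markers were a median 4.01 above their means in WT vehicle 1 and 1.0 in WT IIAEK 1. Small intestine markers were a median 1.64, 2.67 and 0.75 above theirs in the 3 WT vehicle livers. The part of these lists in the member values was not tested. Akp3-/- IIAEK 3 had the highest Saa1, Saa2 and Saa4 (7.52, 7.98 and 5.17) together with the lowest Saa3 (2.96).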
